A study of Arabidopsis thaliana with 7 samples.

Results

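The nuclear genes for subunits of the photosynthetic electron transport chain were compared between roots of the cepd mutant and of the Col-0 wild type of Arabidopsis thaliana. The group was fixed by AT gene identifiers and held 31 of the 32833 genes counted, among them AT4G03280 (PETC), AT1G20340 (PETE2) and AT2G30570 (PSBW). It comprised 12 genes for subunits of photosystem I, 10 for photosystem II, 1 for the cytochrome b6f complex, 2 for plastocyanin, 3 for the chloroplast ATP synthase, 2 for leaf-type ferredoxin-NADP+ reductase (FNR) and 1 for a leaf-type ferredoxin. The list was chosen by function and not by the counts, but with earlier results of these libraries known.

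The cepd plants lack ROXY6, ROXY7, ROXY8 and ROXY9, a group of small glutaredoxin-like proteins that move between shoot and root and act in nitrate acquisition. They are 1 mutant line, made by genome editing and crossing in the Col-0 background. Seedlings of both genotypes had spent 7 d on full nutrition medium (FN) and then 2 d on low nitrogen medium (LN, with 0.1 mM KNO3 and 50 µM NH4NO3) in continuous light with 0.5% sucrose. RNA-seq was done on roots, and each of the 4 cepd and 3 Col-0 libraries pooled 50 seedlings from 5 plates of 1 of 4 independent experiments. The Col-0 libraries carry the replicate numbers 1, 3 and 4, and the authors had removed 1 Col-0 data set because leaf material was in the sample.

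Libraries held 30758339 to 46611731 counts in cepd and 37292558 to 38474492 counts in Col-0, and 20600 genes passed the filter on low counts, all 31 of the group included. Transcripts of ROXY6, ROXY7 and ROXY8 were still counted in both genotypes. ROXY6 stood at 2.79 to 4.48 CPM (counts scaled to the library size) in cepd and 5.23 to 5.96 CPM in Col-0. ROXY9 was nearly uncounted in both, at 0 to 0.0213 CPM in cepd and 0 to 0.0271 CPM in Col-0. An edited gene can still be transcribed, so these levels do not check the labels. The tissue label was checked against marker genes. All 11 root markers passed the filter. Of 16 shoot markers, among them genes of stomata, trichomes and the shoot meristem, 14 were under 1 CPM in all 7 libraries, and MUTE, EPF1 and GL1 were at 0 counts in each. Of the 16, 0 had every cepd library above every Col-0 library, which held for 15.3% of all genes tested. Only 4 of the 16 passed the filter on low counts, so that this count of 0 says little. The summed level of the 16 was 10.9 to 12.6 CPM in cepd and 9.76 to 12.0 CPM in Col-0. Without CER1 and CA1, which made up most of that sum, the other 14 came to 0.987 to 1.45 CPM in cepd and 0.827 to 1.28 CPM in Col-0. The ranges of the genotypes overlapped in both sums. The share of counts from chloroplast-encoded genes was 0.0024% to 0.0065% in cepd and 0.0012% to 0.0014% in Col-0. The share from mitochondrially encoded genes moved the same way, at 0.0529% to 0.150% in cepd and 0.0300% to 0.0379% in Col-0.

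In the light reactions of photosynthesis, photosystem II takes electrons from water, the cytochrome b6f complex passes them to plastocyanin, and photosystem I hands them to ferredoxin, from which FNR makes NADPH. The proton gradient built on the way drives the ATP synthase of the thylakoid. The core reaction centre proteins are encoded in the chloroplast genome, whereas the genes described here are in the nucleus and their products are imported. Roots hold mainly non-green plastids, in which root-type isoforms of ferredoxin and FNR run in the opposite direction and supply electrons from NADPH to nitrite reduction. Excised or illuminated Arabidopsis roots can green, and light, cytokinin and GLK transcription factors raise nuclear photosynthesis genes there.

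Transcripts of the photosynthetic electron transport chain were more abundant in cepd than in Col-0 roots throughout the group. The level of the 31 genes summed was 984, 885, 885 and 927 CPM in cepd replicates 1 to 4, against 542, 438 and 482 CPM in Col-0 replicates 1, 3 and 4. All cepd libraries thus stood above all Col-0 libraries, with means of 920.1 ± 46.9 CPM (SD, n = 4) in cepd and 487 ± 52.2 CPM (SD, n = 3) in Col-0, a ratio of 1.89. By edgeR's quasi-likelihood test with Benjamini-Hochberg correction over the 20600 genes tested, 30 of the 31 genes were higher in cepd at an adjusted p under 0.05, where 9.64% of all genes tested were. None of the 31 was lower, as all had a positive fold change, where 8.3% of all genes tested were. PETE1 (AT1G76100), a minor plastocyanin gene, was the 1 gene that did not pass. With a log2 fold change (log2FC) over 1 asked for as well, 15 of the 31 were called, against 1.93% of all genes tested. This count rested on the Col-0 libraries, as it was 8 without Col-0 replicate 3 and 21 without Col-0 replicate 1. In all 31 genes, PETE1 included, every cepd library was above every Col-0 library, which held for 15.3% of all genes tested. The log2FC, given as cepd over Col-0 throughout, lay between 0.47 and 1.29 with a median of 0.99, where the median of all genes tested was 0.01 and 2.21% of them were above 0.99. In whole roots, more cells of a type and more RNA per cell cannot be told apart.

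**Figure D1:**
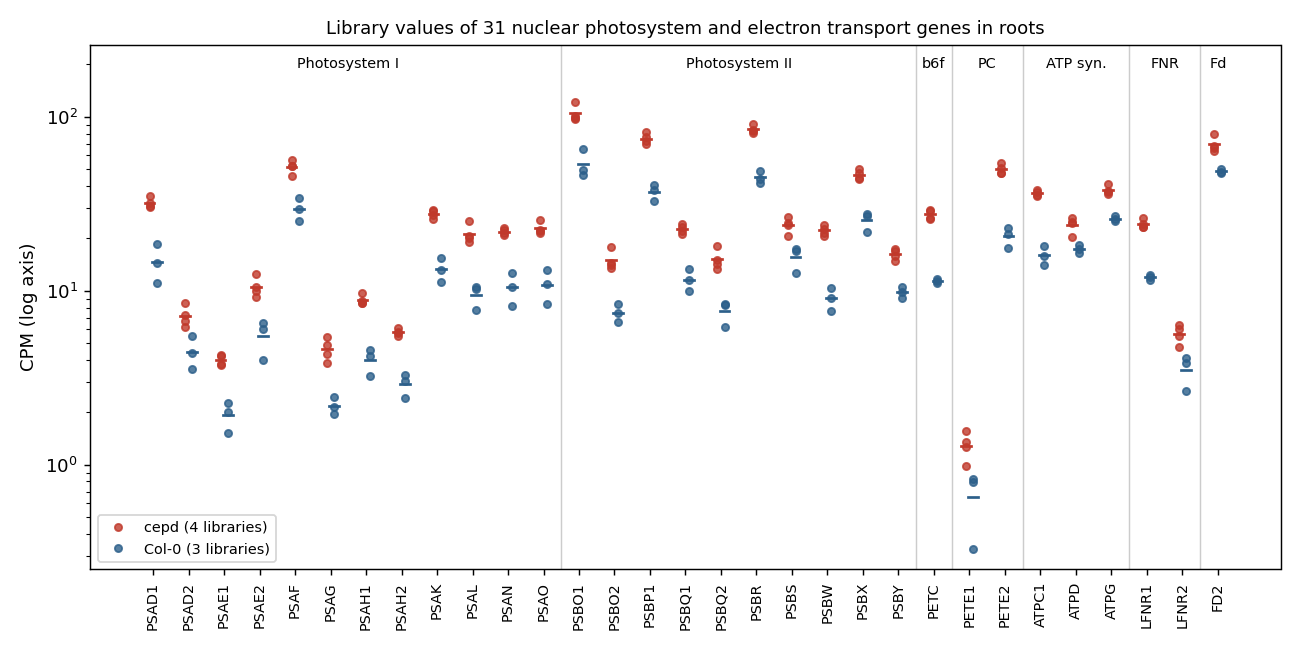
CPM (log axis) of each of the 31 genes in the 4 cepd and 3 Col-0 libraries, grouped by complex, with a point per library and the mean of each genotype. In all 31 genes the cepd points lie above the Col-0 points.

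**Figure D2:**
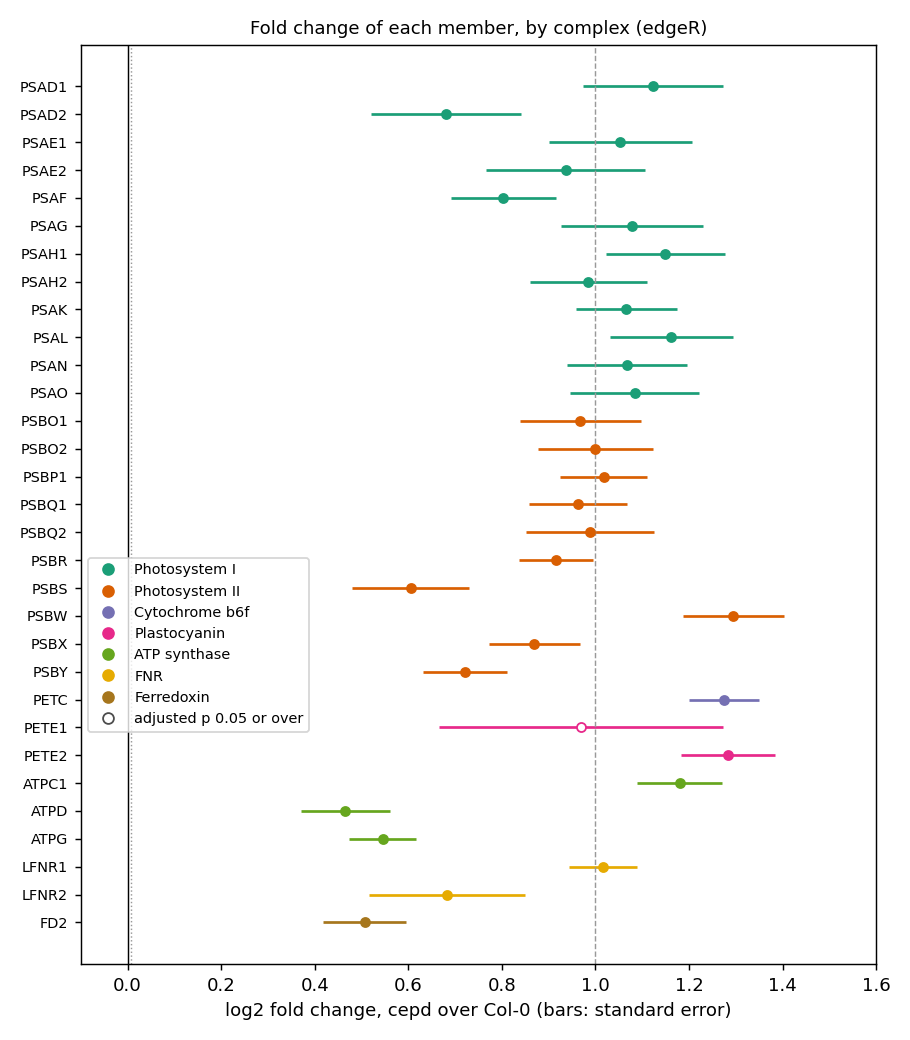
log2FC of each gene (cepd over Col-0, edgeR, bars for the standard error), by complex, with a dotted line at the median of all genes tested (0.01) and a dashed line at 1. The open symbol is PETE1, which did not pass the test, and ATPD with 0.47 and PSBW with 1.29 are at the ends of the range.

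The promoters of 4 genes are shown because these genes mark the range of the response and of the motif content. PETC had the smallest adjusted p of the group, PSBW the largest fold change and PETE2 the next largest, while FD2 was among the 3 smallest. Each run holds the 250 bases before and the 50 bases after the annotated gene start, 5′ to 3′ on the strand of the gene, from the RefSeq TAIR10.1 genome: PETC at chr4:1439896-1440195 on the plus strand, PSBW at chr2:13020262-13020561 on the minus strand, PETE2 at chr1:7043343-7043642 on the minus strand and FD2 at chr1:22444057-22444356 on the plus strand. Capitals mark matches on either strand to the letters searched.
PETC: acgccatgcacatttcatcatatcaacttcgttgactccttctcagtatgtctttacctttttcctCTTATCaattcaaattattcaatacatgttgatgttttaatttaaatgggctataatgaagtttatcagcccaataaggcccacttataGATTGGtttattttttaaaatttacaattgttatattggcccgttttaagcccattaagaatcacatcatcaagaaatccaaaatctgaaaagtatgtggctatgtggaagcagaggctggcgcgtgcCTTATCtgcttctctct
PSBW: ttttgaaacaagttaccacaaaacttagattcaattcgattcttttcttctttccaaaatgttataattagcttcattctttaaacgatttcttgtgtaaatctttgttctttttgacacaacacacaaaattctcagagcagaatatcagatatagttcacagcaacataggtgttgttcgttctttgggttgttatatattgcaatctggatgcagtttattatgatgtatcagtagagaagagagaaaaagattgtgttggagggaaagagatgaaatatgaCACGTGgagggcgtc
PETE2: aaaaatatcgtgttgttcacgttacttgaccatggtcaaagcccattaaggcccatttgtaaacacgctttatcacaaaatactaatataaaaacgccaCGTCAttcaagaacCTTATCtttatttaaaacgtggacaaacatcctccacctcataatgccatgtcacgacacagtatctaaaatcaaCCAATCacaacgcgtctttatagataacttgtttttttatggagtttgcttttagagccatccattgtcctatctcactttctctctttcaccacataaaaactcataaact
FD2: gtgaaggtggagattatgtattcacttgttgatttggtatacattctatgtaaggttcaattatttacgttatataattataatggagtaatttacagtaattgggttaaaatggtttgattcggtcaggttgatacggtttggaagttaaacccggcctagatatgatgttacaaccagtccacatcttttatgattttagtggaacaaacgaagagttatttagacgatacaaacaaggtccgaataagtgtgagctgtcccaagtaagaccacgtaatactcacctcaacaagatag

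The letters searched, on both strands, were CACGTG (G-box), GATAAG (I-box), CCAATC (known from promoters bound by GLK factors), TGACG (core of the TGA factor site) and TACGTA. The I-box letters were in 17 of the 31 promoters (54.8%) and in 14.6% of the 27443 promoters of the same length of all nuclear protein-coding genes. The G-box letters were in 11 (35.5%), against 7.68% of all promoters. CCAATC was in 7 (22.6%, against 12.3% of all promoters) and TGACG in 9 (29.0%, against 23.1%). TACGTA was in 0 of the 31, against 5.55% of all promoters. Of the genes printed, PETC held I-box letters upstream and downstream of its start and 1 match to CCAATC between them. PSBW held only a G-box, which lay after the annotated start, and PETE2 held TGACG, I-box and CCAATC matches. FD2 held none of the 5, as did PSAG, PSAN, PSBP1, PSBS, PSBX and LFNR2. Matches to different letters did not overlap in the genes printed. Such matches describe letters and not bound sites.

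All 12 genes of photosystem I rose in cepd, 8 of them with a log2FC over 1, and their median log2FC was 1.07 (range 0.68 to 1.16). Their summed level was 239, 215, 213 and 207 CPM in cepd, against 129, 88.4 and 111 CPM in Col-0, a ratio of 2.00 between the means. PSAK (AT1G30380, chromosome 1 of TAIR10.1, 10722183 to 10723247), for a small peripheral membrane subunit, had 29.3, 25.7, 27.3 and 28.8 CPM in cepd, against 15.4, 11.2 and 13.2 CPM in Col-0. The lowest cepd library was well above the highest Col-0 library. PSAK averaged 27.8 ± 1.62 CPM in cepd (SD, n = 4) and 13.3 ± 2.09 CPM in Col-0 (SD, n = 3), 2.09-fold higher (log2FC 1.07 with a standard error of 0.11, adjusted p = 0.000249 from edgeR). PSAH1 (AT3G16140, chromosome 3, 5467987 to 5469594), for a subunit on the side of photosystem I where the antenna of photosystem II docks in state transitions, had 9.76, 8.54, 8.69 and 8.49 CPM in cepd, against 4.56, 3.23 and 4.2 CPM in Col-0. Its cepd libraries lay close together apart from replicate 1. PSAH1 was 2.22-fold higher (log2FC 1.15 with a standard error of 0.13, adjusted p = 0.000391 from edgeR).

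The other genes of photosystem I are given by role. PSAD1, PSAD2, PSAE1 and PSAE2 encode the stromal subunits that dock ferredoxin, and their log2FC was 1.12, 0.68, 1.05 and 0.94. PSAD2 was the weakest of the complex, at 7.24, 8.50, 6.21 and 6.73 CPM in cepd, against 5.47, 3.56 and 4.35 CPM in Col-0 (adjusted p = 0.0175 from edgeR). It did not pass without cepd replicate 2 (adjusted p = 0.0509), Col-0 replicate 3 (0.0673) or Col-0 replicate 4 (0.0584). PSAF and PSAN, on the lumenal side where plastocyanin binds, had a log2FC of 0.80 and 1.07. PSAF was the most abundant of the complex per length of exon, with 43.0 CPM per kb in cepd and 24.6 CPM per kb in Col-0. PSAG, which like PSAK sits at the edge of the complex, had a log2FC of 1.08, and PSAL and PSAO, near the docking site of the antenna, had 1.16 and 1.08.

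All 10 genes of photosystem II also rose in cepd. Their median log2FC was 0.97 (range 0.61 to 1.29), 3 were over 1, and the summed level was 457, 408, 407 and 430.0 CPM in cepd, against 249, 199.9 and 217 CPM in Col-0, a ratio of 1.92 between the means. PSBW (AT2G30570, chromosome 2, 13019028 to 13020311), for a small membrane protein that stabilises the dimer and its antenna supercomplexes, showed the largest fold change of the 31 genes. It had 23.8, 20.7, 21.5 and 22.7 CPM in cepd, against 10.4, 7.66 and 9.08 CPM in Col-0, so that the lowest cepd value was 20.7 CPM and the highest Col-0 value 10.4 CPM. Its means were 22.2 ± 1.37 CPM in cepd (SD, n = 4) and 9.04 ± 1.37 CPM in Col-0 (SD, n = 3), 2.45-fold higher (log2FC 1.29, standard error 0.11, adjusted p = 8.56e-05 from edgeR). PSBR (AT1G79040, chromosome 1, 29735952 to 29737009), which helps to assemble the oxygen-evolving complex, had the highest level per length of the whole group. PSBR had 84.4, 80.6, 83.2 and 90.5 CPM in cepd, against 49.0, 41.8 and 43.9 CPM in Col-0, and all cepd libraries were higher (log2FC 0.92, standard error 0.08, adjusted p = 0.000100 from edgeR).

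The genes for the extrinsic proteins of the oxygen-evolving complex rose by similar amounts. PSBO1, PSBO2, PSBP1, PSBQ1 and PSBQ2 had a log2FC of 0.97, 1.00, 1.02, 0.96 and 0.99. PSBO1, for the manganese-stabilising protein, was the most abundant of these transcripts, at 121, 102, 98.3 and 97.2 CPM in cepd, against 64.9, 46.2 and 49.5 CPM in Col-0. The small membrane subunits PSBX and PSBY had a log2FC of 0.87 and 0.72. PSBS, whose product is not needed for electron transport but senses lumen acidity for the dissipation of excess light, was the weakest of the complex (log2FC 0.61, standard error 0.12, adjusted p = 0.00934 from edgeR). PSBS had 26.5, 20.5, 23.8 and 24.4 CPM in cepd, against 16.9, 17.4 and 12.7 CPM in Col-0.

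Between the photosystems, the gene for the Rieske protein and the major plastocyanin gene rose in cepd, while the minor plastocyanin gene did not pass. PETC (AT4G03280, chromosome 4, 1440146 to 1441863) encodes the Rieske iron-sulphur protein of cytochrome b6f. It had 29.0, 26.3, 26.0 and 28.7 CPM in cepd, against 11.7, 11.4 and 11.0 CPM in Col-0, with little spread in either genotype. PETC averaged 27.5 ± 1.57 CPM in cepd (SD, n = 4) and 11.4 ± 0.342 CPM in Col-0 (SD, n = 3), a 2.42-fold difference (log2FC 1.27, standard error 0.07, adjusted p = 1.19e-05 from edgeR). PETE2 (AT1G20340, chromosome 1, 7042046 to 7043392), the major plastocyanin gene, had 54.1, 47.6, 47.5 and 50.7 CPM in cepd, against 22.9, 17.5 and 21.2 CPM in Col-0. The groups were far apart, and PETE2 was 2.44-fold higher (log2FC 1.28, standard error 0.10, adjusted p = 6.36e-05 from edgeR). The other plastocyanin gene, PETE1 (AT1G76100, chromosome 1, 28553883 to 28554930), stood near 1 CPM. PETE1 rested on 50, 49, 46 and 48 counts in cepd, against 31, 12 and 30 counts in Col-0, or 1.34, 1.56, 0.982 and 1.26 CPM in cepd against 0.827, 0.326 and 0.791 CPM in Col-0. Its libraries did not overlap between the genotypes, but its log2FC of 0.97 had a standard error of 0.30 and did not pass (adjusted p = 0.0545 from edgeR). PETE1 passed in edgeR once the replicate number was a block (adjusted p = 0.0242), with DESeq2 (0.0297), without the filter on low counts (0.0497) and without Col-0 replicate 1 (0.0334).

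The genes for the 3 subunits of the ATP synthase all rose in cepd, 1 of them with a log2FC over 1, and they spanned nearly the whole range of the group. ATPC1 (AT4G04640, chromosome 4, 2350498 to 2352025), for the gamma subunit that carries the light-dependent redox switch, had 36.8, 35.3, 35.2 and 38.0 CPM in cepd, against 18.1, 15.9 and 14.1 CPM in Col-0. It was 2.27-fold higher, and the groups were far apart (log2FC 1.18 with a standard error of 0.09, adjusted p = 6.19e-05 from edgeR). ATPG (AT4G32260, chromosome 4, 15573553 to 15574737), for the nuclear-encoded subunit of the peripheral stalk, had 41.2, 36.9, 37.4 and 36.0 CPM in cepd, against 26.0, 25.0 and 26.9 CPM in Col-0. Its groups did not overlap, and it was 1.46-fold higher (log2FC 0.55 with a standard error of 0.07, adjusted p = 0.000986 from edgeR). ATPD, for the delta subunit that joins the stalk to the catalytic head, had 24.7, 20.5, 24.5 and 26.3 CPM in cepd, against 18.4, 16.4 and 17.4 CPM in Col-0, the smallest log2FC of the 31 (0.47, standard error 0.09, adjusted p = 0.00882 from edgeR). The ratio of these genes within each library restates this inequality. It was picked after the values had been seen and hence not tested. ATPC1 over ATPD was 1.49, 1.73, 1.43 and 1.45 in cepd, against 0.985, 0.969 and 0.812 in Col-0. ATPC1 over ATPG was 0.892, 0.956, 0.940 and 1.06 in cepd, against 0.697, 0.634 and 0.525 in Col-0. Neither ratio overlapped between the genotypes.

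At the end of the chain, both leaf-type FNR genes and FD2 rose in cepd, while the root-type genes fell. LFNR1 (AT5G66190, chromosome 5, 26450964 to 26453199), a leaf-type FNR, had 26.0, 24.1, 23.3 and 23.3 CPM in cepd, against 12.4, 12.0 and 11.6 CPM in Col-0. The spread within each genotype was small, and LFNR1 was 2.02-fold higher (log2FC 1.02, standard error 0.07, adjusted p = 5.19e-05 from edgeR). LFNR2, the other leaf-type FNR, had 6.33, 6.05, 4.74 and 5.50 CPM in cepd, against 4.08, 3.83 and 2.64 CPM in Col-0 (log2FC 0.68, adjusted p = 0.0203 from edgeR). LFNR2 did not pass without cepd replicate 1 (adjusted p = 0.0527), cepd replicate 2 (0.0576) or Col-0 replicate 4 (0.0511). FD2, the main leaf ferredoxin gene, had 67.6, 63.4, 66.1 and 80.1 CPM in cepd, against 50.2, 47.8 and 48.4 CPM in Col-0, a modest difference with a higher value in cepd replicate 4 (log2FC 0.51, standard error 0.09, adjusted p = 0.00406 from edgeR). FD1, a second leaf-type ferredoxin gene outside the 31 and named after its values were seen, had 49.4, 46.7, 62.9 and 64.0 CPM in cepd, against 40.6, 47.6 and 51.5 CPM in Col-0. Its libraries overlapped between the genotypes and it did not pass (log2FC 0.26, adjusted p = 0.204 from edgeR). FD1 did pass in edgeR when libraries were blocked by replicate number (adjusted p = 0.00219).

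The 3 root-type genes of the same step were all lower in cepd. RFNR2 had 229, 218, 252 and 261 CPM in cepd, against 591, 847 and 743 CPM in Col-0 (log2FC -1.60, adjusted p = 5.61e-05 from edgeR). RFNR1 had 77.6, 77.4, 83.1 and 85.7 CPM in cepd, against 115, 179 and 159 CPM in Col-0 (log2FC -0.90, adjusted p = 0.00158 from edgeR). FD3, the root-type ferredoxin gene, had a log2FC of -1.02 (adjusted p = 0.00216 from edgeR). In these genes Col-0 replicate 3 was the highest and Col-0 replicate 1 the lowest of the wild type, the reverse of most genes of the photosynthetic chain. The balance between the isoforms is a ratio within each library, picked after the values had been seen and not tested. LFNR1 over RFNR2 was 0.114, 0.111, 0.0925 and 0.0895 in cepd, against 0.0210, 0.0141 and 0.0156 in Col-0. FD2 over FD3 was 0.256, 0.236, 0.201 and 0.233 in cepd, against 0.109, 0.0657 and 0.0751 in Col-0. The root-type transcripts still exceeded the leaf-type ones in every library of both genotypes in CPM.

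**Figure D3:**
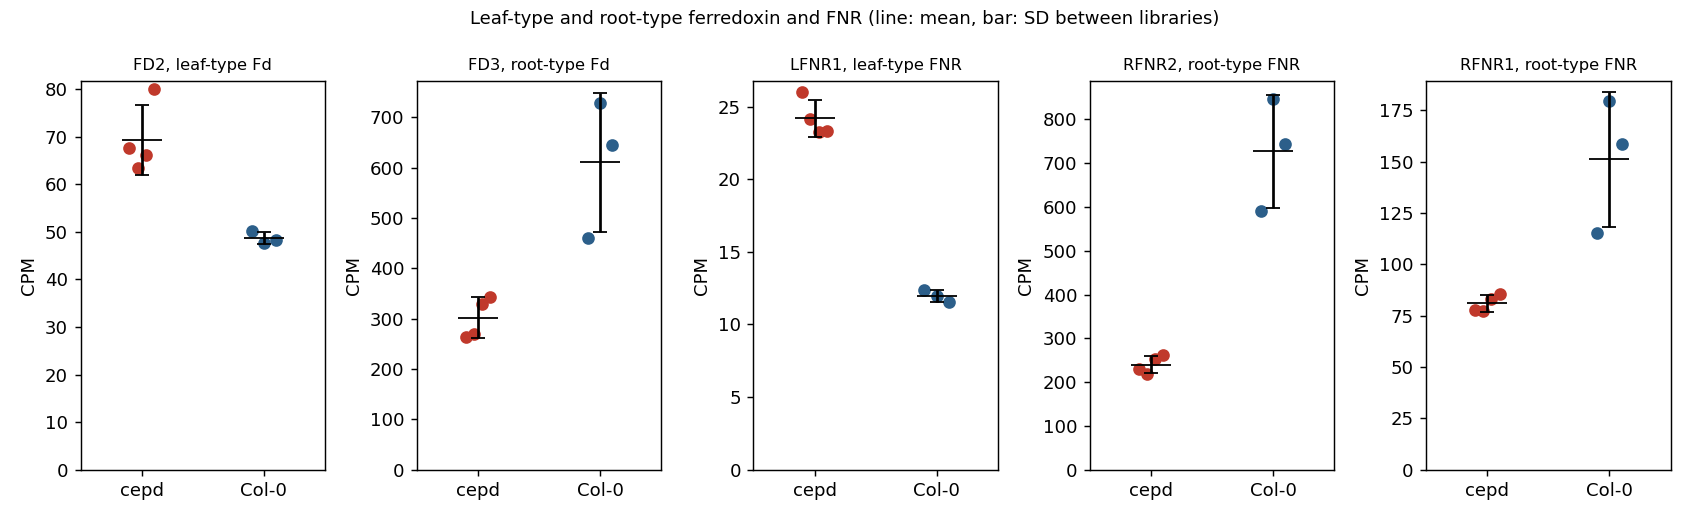
CPM of FD2, FD3, LFNR1, RFNR2 and RFNR1 in each cepd library (red) and Col-0 library (blue), each gene on its own linear axis from 0, with a point per library, a line at the mean and a bar for the SD. The leaf-type genes FD2 and LFNR1 are higher and the 3 root-type genes lower in cepd, and no gene shown overlaps between the genotypes.

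Of the 31 genes, 14 form 7 pairs of copies for the same subunit. The log2 ratio of the copies was compared between the genotypes by a two-sided exact permutation test over the libraries, which cannot give a p under 0.0286. For PSAH1 over PSAH2 the log2 ratio was 0.67, 0.58, 0.67 and 0.55 in cepd, against 0.47, 0.42 and 0.47 in Col-0. This difference of 0.17 had the smallest p the test allows (exact permutation p = 0.0286) but did not pass after adjustment over the 7 pairs (adjusted p = 0.200). PSAH2, picked for this pair, had 6.11, 5.70, 5.47 and 5.79 CPM in cepd, against 3.28, 2.42 and 3.03 CPM in Col-0, so that both copies were higher in cepd. PSAD1 over PSAD2 had the largest difference, with a log2 ratio of 2.28, 1.90, 2.28 and 2.18 in cepd, against 1.75, 1.64 and 1.73 in Col-0. Its libraries did not overlap between the genotypes either, and the difference was 0.46 (exact permutation p = 0.0571, adjusted p = 0.200). For the pairs of PSAE, PSBO, PSBQ, PETE and LFNR the difference lay between -0.23 and 0.31, and adjusted p values between 0.400 and 0.857. A single pair at the smallest p has an adjusted p of 0.200, and at least 5 of the 7 pairs would have to reach that p to pass, so that the adjusted values do not show whether the copies respond alike. The longest identical run shared by the spliced transcripts of a pair was 17 to 35 bases. Whether reads could match both copies with mismatches allowed was not examined.

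The size of the difference was also taken between libraries of the same replicate number (1, 3 and 4), which were treated as pairs. For all 31 genes every cepd library was above every Col-0 library. Any pairing would therefore give all 31 higher in cepd, and only the sizes add to the above. The median log2 difference was 0.93, 1.13 and 1.01 in replicates 1, 3 and 4. For photosystem I the medians were 0.93, 1.32 and 0.97. The smallest single difference was 0.31 and the largest 1.59, both in replicate 3. Within Col-0, replicate 1 was the highest library for 26 of the 31 genes and replicate 3 the lowest for 25. Within cepd, replicate 1 was the highest for 21. The spread between libraries was wider in Col-0, with a median coefficient of variation of 7.11% in cepd and 15.3% in Col-0 over the 31 genes.

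**Figure D4:**
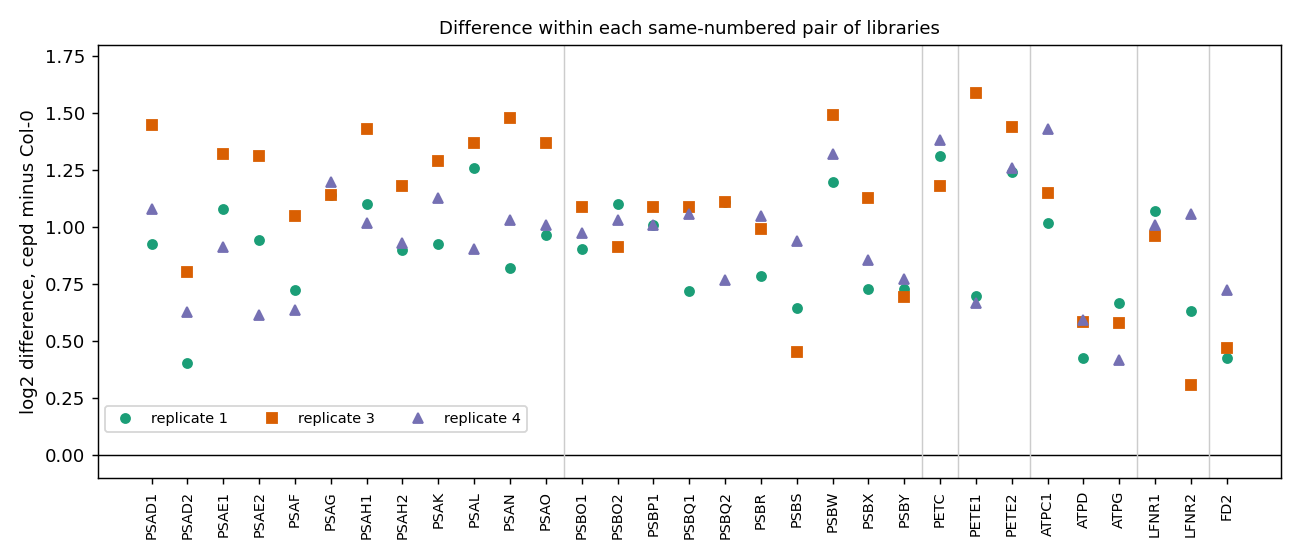
log2 difference between the cepd and the Col-0 library of the same replicate number (1, 3 and 4) for each of the 31 genes, by complex. All points lie above 0, as they would under any pairing, and between 0.31 and 1.59.

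The order of abundance among the genes was nearly the same in both genotypes. Per kb of exon, PSBR (108 CPM per kb in cepd and 57.2 in Col-0), FD2 (70.4 and 49.5) and PSBO1 (69.4 and 35.5) were at the top. LFNR2 (3.08 and 1.92) and PETE1 (1.23 and 0.618) were at the bottom. Across the 31 genes, which are not independent replicates and share the libraries, the log2 CPM per kb in cepd and in Col-0 had a Pearson's r of 0.988 and a Spearman's rho of 0.979. Between the log2FC and the log2 CPM per kb in Col-0, r was -0.17 and rho -0.15 over the same 31 genes. In the annotation 10 of the 31 genes overlap a neighbour, 8 of them only on the other strand. Over whole gene spans, introns included, the overlap reached 788 bases in PSAH1, 479 in PSAG and 436 in PSAE1. The overlap of exons alone is not given here. The library kit does not mark strand, so that reads from overlapping exons cannot be assigned. PSBW, PETE2 and PETC, which had the largest fold changes, have no such neighbour.

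The group was set beside other lists of genes, which share the libraries and were also written with earlier results known. Of 26 further genes of photosynthetic electron transport, such as assembly factors and other small subunits, 25 passed the filter, 18 rose in cepd and 0 fell, with a median log2FC of 0.61. PETM, for a small subunit of cytochrome b6f, had a log2FC of 1.32 (adjusted p = 5.25e-05 from edgeR). The light-harvesting antenna, which feeds both photosystems, had 15 of 19 genes higher and 0 lower (median log2FC 0.92). Of 20 genes of the Calvin cycle, which uses the NADPH and ATP made, 11 were higher, 1 was lower and the median log2FC was 0.93. The gene that fell was TKL1, for a transketolase shared with the pentose phosphate pathway, with 607 ± 13.8 CPM in cepd (SD, n = 4) and 929 ± 90.9 CPM in Col-0 (SD, n = 3), a log2FC of -0.61 (adjusted p = 0.000699 from edgeR). TKL1 was named after its value was seen, and with it included the summed level of the Calvin cycle genes was 1403 to 1509 CPM in cepd and 1459 to 1616 CPM in Col-0. Nuclear genes for plastid ribosomal proteins were raised less, with 10 of 12 higher and a median log2FC of 0.40. Nuclear genes of mitochondrial electron transport went the other way, with 3 of 14 lower by edgeR's test, a negative log2FC in all 14 and a median of -0.26. Their summed level was 3657 to 4241 CPM in cepd and 4239 to 4853 CPM in Col-0, so that the ranges overlapped. Once libraries were blocked by replicate number, 12 of these 14 were lower.

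The chloroplast-encoded partners of these subunits differed by more but varied between the cepd libraries. Of 21 such genes 12 passed the filter, 10 of them higher and 0 lower, with a median log2FC of 2.5. Their summed level was 32.5, 30.7, 11.1 and 10.5 CPM in cepd, against 3.68, 3.29 and 3.98 CPM in Col-0. Replicates 1 and 2 of cepd stood well above replicates 3 and 4, whereas the summed level of the 31 nuclear genes differed little among the cepd libraries. The mitochondrially encoded share of counts, at 0.139%, 0.150%, 0.0707% and 0.0529% in cepd replicates 1 to 4, split the libraries in the same way. The part of these organelle-encoded transcripts in the values of the nuclear genes was not tested. Of the shoot markers 0 of the 4 tested were higher or lower, with a median log2FC of 0.12. Of the root markers 1 of 11 was higher and 0 were lower, with a median log2FC of 0.02, and their summed level was 608 to 773 CPM in cepd and 541 to 619 CPM in Col-0.

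**Figure D5:**
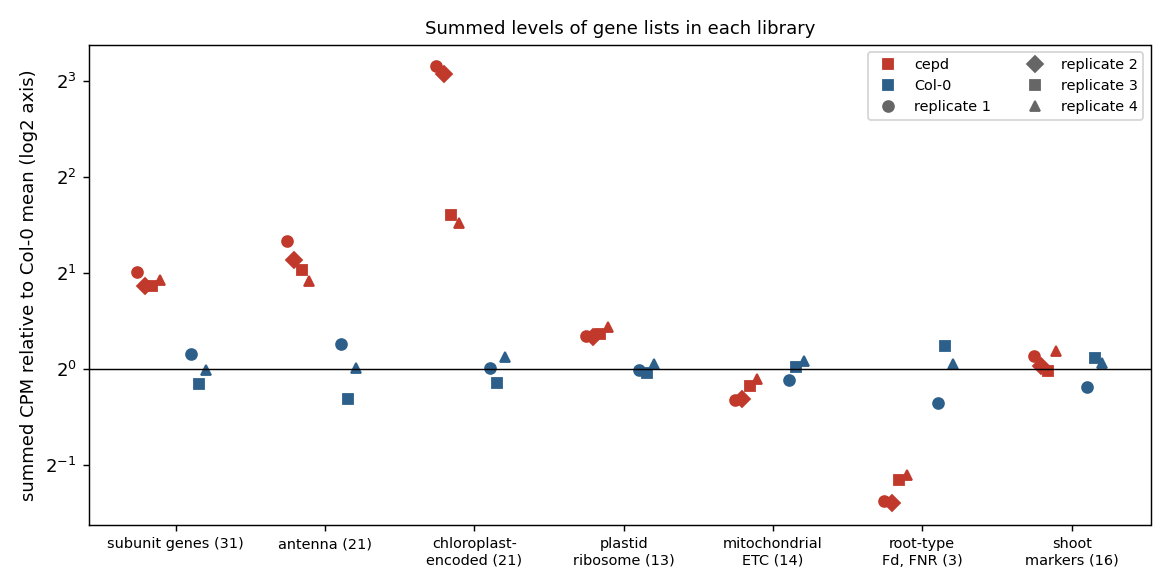
Summed CPM of 7 gene lists in each cepd library (red) and Col-0 library (blue), divided by the Col-0 mean of that list (log2 axis), with the number of genes in brackets and a marker shape per replicate number. The 31 subunit genes, the antenna, the plastid ribosome and the chloroplast-encoded genes are higher in every cepd library. The root-type ferredoxin and FNR genes are lower in every one. The mitochondrial electron transport genes and the shoot markers overlap between the genotypes.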

How the data were processed

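Root RNA-seq of 4 cepd and 3 Col-0 libraries was analysed. The authors deposited raw counts per gene, made per the submitters' processing notes with CASAVA 1.8.2, STAR 2.5.2b-2, HTSeq 0.9.1 and DESeq2 2.11.40.6 on TAIR10. The strand setting of the counting is not given in the sources used here, and the kit (TruSeq RNA v2) does not mark strand. No column belonged to another series.

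Counts were tested in R 4.3.3 with edgeR 4.0.16 (filterByExpr with a minimum count of 10 and a minimum total of 15, TMM scaling with factors of 0.986 to 1.02, robust quasi-likelihood test without a block, Benjamini-Hochberg over 20600 genes). The biological coefficient of variation was 11.2%. CPM use the TMM-scaled library size, and the standard error is the log2FC over the root of the F statistic of the test. The code was tested on simulated data. Ratios of copies used a prior of 0.5 counts. Gene positions, exon lengths, overlaps and promoters (250 bases before to 50 after the start) came from the RefSeq annotation of TAIR10.1, in which all 31 identifiers were found. The promoter sequences are credited to RefSeq.

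Alternatives were DESeq2 1.42.0, limma-voom (limma 3.58.1), DESeq2 size factors, no filter, a filter of 1 CPM in 3 libraries, nuclear genes only, a prior of 5 counts, the replicate number as a block and leaving out each library. The design text says that libraries came from independent experiments. Deviations from the group means correlated at 0.435, 0.189 and 0.274 for same-numbered libraries (replicates 1, 3 and 4). For the other combinations they correlated at -0.371 to 0.192, the highest for cepd replicate 4 with Col-0 replicate 3. The numbers were taken as pairs, although these values do not single out the pair of replicate 3. Nothing further says how the samples of an experiment were grown, so that p-values measure the spread between these libraries.

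Genes described in full were the 2 with the smallest adjusted p in each complex, copies whose ratio passed and genes that did not pass, up to 10 in all. Other genes given with values per library were chosen after their values were seen. From other lists up to 2 genes with the smallest adjusted p were named, apart from FD1, FD3, TKL1 and the shoot markers named above. The members, lists and marker genes were chosen with earlier results of these data known. Apart from the genes named, the lists are described by counts, medians and summed levels, and no list was tested as a whole.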

Additional observations from a re-analysis of the deposited data

Results flagged for a closer look

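Of the 31 genes checked for an outlying cepd library, 1 had one. PSAH1 stood at 9.76 CPM in cepd replicate 1, above 8.49 to 8.69 CPM in the other cepd libraries, and the gap to the nearest library was 0.842 of the range. Chance alone gives such a value in about 1 of 20 groups.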

How the results depend on the processing

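Over 434 alternative values of the fold changes, 424 kept their direction and side of the threshold, 6 lost significance, 4 gained it and 0 changed sign. The changes concerned PETE1, LFNR2 and PSAD2, as given above. Genes higher in cepd numbered 28 to 31 when leaving out each library and 30 to 31 under the other alternatives, and none was lower under any. The count at a log2FC over 1 was 8 to 21 when leaving out each library, lowest without Col-0 replicate 3 and highest without Col-0 replicate 1, and 14 to 15 otherwise. The median log2FC was 0.87 to 1.07 when leaving out each library and 0.98 to 1.00 otherwise. With the replicate number as a block, 31 genes were higher and 15 were called, with a median log2FC of 1.00, and PETE1 passed (adjusted p = 0.0242 from edgeR). The block changed no other call among the 31. Among the other lists it moved the count of calls by over 1.5 times for mitochondrial electron transport (12 lower with it, 3 without) and for the root markers (2 higher with it, 1 without). The share of all genes called with the block is not given here, so that these counts have no background to be set against. The number of copy ratios at an exact permutation p under 0.05 was 1 with a prior of 0.5 or of 5 counts. PETE1 had 12 counts in its lowest library, and what kept it from passing was not tested.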
